A study of Mus musculus with 29 samples.

Results

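The genes described are 10 macrophage and antigen presentation genes, C1qa, C1qb, C1qc, Csf1r, Adgre1, Cd68, Cybb, Cd74, H2-Aa and H2-Ab1, out of 51912 gene IDs in the deposited table. They were chosen by name, with earlier results of these data known. C1qc and Cybb were picked also for higher counts at 12 weeks than at postnatal day 8. RNA sequencing was done on mouse ovaries dissociated to cells with papain, from animals labelled WT (Cdkn1b +/+) or p27null (Cdkn1b -/-). Cdkn1b encodes p27Kip1, an inhibitor of cyclin-dependent kinases, and the study asked what control of the cell cycle does in ovarian development. Ovaries were taken at embryonic days 13.5 and 18.5 (E13.5, E18.5), at postnatal day 8 (PND8) and at 12 weeks (12wk), with 4 WT libraries at each age, 4 p27null libraries at E18.5 and 3 at the other ages, 29 in all. The labels name no strain, litter or oestrous stage, no other allele or agent, and no restriction of the null to a cell type. They do not say that replicates came from separate animals, so p-values measure only the spread between these libraries.

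Macrophages enter the ovary before birth and stay there through life, where they clear dying cells and take part in the turnover of follicles and corpora lutea. C1qa, C1qb and C1qc encode the 3 chains of C1q, the recognition molecule of the classical complement pathway, which tissue macrophages themselves make. Csf1r is the receptor for the growth factors on which most macrophages depend, Adgre1 encodes the surface protein F4/80, Cd68 a lysosomal glycoprotein and Cybb the catalytic subunit of the phagocyte oxidase. H2-Aa and H2-Ab1 encode the alpha and beta chains of the MHC class II molecule I-A, and Cd74 the invariant chain that escorts class II molecules to the compartments where they load peptide. Class II genes are switched on together in professional antigen-presenting cells by the coactivator Ciita.

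All 10 genes had counts in the ovary at every age. Calls for them were made between ages, and none was made between genotypes. Levels are CPM, that is counts relative to the library total, after scaling by the trimmed mean of M-values (TMM) over all 29 libraries. Library totals ran from 14.1 to 48.2 M counts, so that 3 counts, taken as the floor of detection, correspond to 0.0622 to 0.213 CPM before scaling. These floors cover counting error only. Haemoglobin genes took 19% of the counts in WT E13.5 replicate 3 and at most 3.59% elsewhere. Cdkn1b was lower in every p27null library than in every WT library of its age, but was not at 0, with 4.30 CPM in the lowest p27null library and 80.7 CPM in the highest. Because the labels do not say which part of the gene is missing, these remaining counts bear on no label. Of 11 ovary genes of granulosa, theca, luteal and germ cells, 9 were counted in every library. Of 28 other macrophage identity and lysosome genes, 24 were counted in every library, among them Ptprc, the pan-leukocyte phosphatase CD45, and Spi1, the transcription factor PU.1.

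On the GRCm38 build with GENCODE M21 annotation, the C1q genes form a cluster on the minus strand of chromosome 4: C1qb spans positions 136880129 to 136886187, C1qc 136889804 to 136893065 and C1qa 136895917 to 136898803. On chromosome 17, H2-Ab1 (34257689 to 34269419) and H2-Aa (34282744 to 34287823) lie side by side in the major histocompatibility complex, and Adgre1 is at 57358691 to 57483527. Cd68 is on chromosome 11 (69664213 to 69666153), and Cybb on chromosome X (9435252 to 9487771). All 10 are protein-coding. Csf1r alone had counts that were not whole in all 29 libraries, as arises when RSEM divides reads among loci, and its level is less certain than those of the other 9 genes, whose counts were whole throughout.

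Upstream stretches of 4 genes are shown, for class II and C1q genes whose levels differed between ages. RefSeq windows on GRCm38.p6, holding 250 bases before each start, were found for 5 of the 10 genes (C1qb, C1qc, Cybb, Cd68 and H2-Aa), and no window was used for C1qa, Csf1r, Adgre1, Cd74 and H2-Ab1. Windows of the class II genes H2-Eb1 (beta chain of I-E) and H2-DMb1 (beta chain of the peptide-exchange factor H2-DM) were added. The search covered both strands for 4 motifs chosen after looking at the windows: an X box (the first capitals in H2-Eb1, with any base at the fifth and the ninth letter), TGATTGG (core of the Y box, an inverted CCAAT element), TGACGTCA (a cyclic-AMP-response-like element) and AGGAAGT (purine-rich, of the kind that ETS factors such as PU.1 bind). Capitals mark the matches. Distances are from the RefSeq start, and each stretch is kept to bases before the GENCODE gene as well. The class II stretches are the 120 bases just before the start.
H2-Aa (chr17:34287824-34287943, minus strand): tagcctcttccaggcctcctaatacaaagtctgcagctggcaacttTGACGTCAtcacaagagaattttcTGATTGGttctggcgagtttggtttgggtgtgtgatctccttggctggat
H2-Eb1 (chr17:34305747-34305866, plus strand): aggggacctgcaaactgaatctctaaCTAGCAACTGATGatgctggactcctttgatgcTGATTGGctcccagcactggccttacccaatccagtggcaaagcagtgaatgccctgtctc

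All 3 class II windows held TGATTGG, beginning 50 bases before the start in H2-Aa, 61 in H2-Eb1 and 63 in H2-DMb1. This motif was in 7.23% of the 32851 windows in the RefSeq table, and of the other genes it was found in Cd68. H2-Eb1 and H2-DMb1 also held the X box pattern, beginning 94 and 97 bases before the start, which 9 windows (0.0274%) held. Looser forms of the X box were not searched for, so its absence from the H2-Aa window holds for this pattern only. H2-Aa held TGACGTCA, beginning 74 bases before the start, which was in 1.55% of windows. The RefSeq start of H2-DMb1 lies 119 bases inside its GENCODE gene, so that both of its matches lie within that gene, and its stretch is not shown.

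For the C1q genes, the stretches shown are the 110 bases before the start of C1qb and 79 bases beginning 230 before the RefSeq start of C1qc, in which AGGAAGT was matched on the opposite strand and so reads ACTTCCT.
C1qb (chr4:136886201-136886310, minus strand): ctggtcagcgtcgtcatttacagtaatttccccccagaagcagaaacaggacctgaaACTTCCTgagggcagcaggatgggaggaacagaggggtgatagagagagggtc
C1qc (chr4:136893066-136893144, minus strand): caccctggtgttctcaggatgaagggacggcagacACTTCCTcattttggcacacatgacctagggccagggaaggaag

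The match began 53 bases before the start in C1qb and 195 in C1qc, whose RefSeq start lies 151 bases inside its GENCODE gene, and 7.69% of all windows held this motif. None of the 4 motifs was in the Cybb window. A match describes these letters and is no evidence of binding.

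In the fetal ovary the C1q genes had the highest levels of the set per length, and H2-Aa the lowest. C1qb had 22.2, 25.5, 23.3 and 41.4 CPM in WT E13.5 replicates 1 to 4, and 17.5, 33.0, 37.6 and 17.2 CPM at E18.5. Replicate 4 stood above the others at E13.5, and at E18.5 replicates 2 and 3 were high and 1 and 4 low, so that the ages overlapped. H2-Aa was at 2 to 14 counts in the WT E13.5 libraries, or 0.363, 0.281, 0.151 and 0.619 CPM, which places replicate 3 under its floor of 0.213 CPM. At E18.5 its WT values were 0.519, 0.601, 1.36 and 0.458 CPM, again overlapping with E13.5. Per kilobase of the longest annotated transcript, the WT E13.5 level was highest for C1qb at 25.8 ± 8.25 CPM per kb (SD, n = 4), followed by C1qc at 22.2 and C1qa at 9.97. The lowest were Cybb, at 0.996 CPM per kb, and H2-Aa, at 0.11. C1qb and C1qc, next to each other in this order, did not differ beyond their spread. Per kilobase of all exons C1qb was unchanged and C1qc was at 13.8 ± 4.40 (SD, n = 4).

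Between E13.5 and E18.5 no member was called in either genotype. In WT, 0 of 10 genes were called, where called means an adjusted p under 0.05 in edgeR's quasi-likelihood test with Benjamini-Hochberg adjustment over all genes tested. Over all genes, 34% were called between these ages in WT and 30.2% in p27null, where again 0 of 10 members were called. None of the 10 had an unadjusted p under 0.05 in either genotype, and DESeq2 called 0 as well. The largest WT difference was that of H2-Aa, with a log2 fold change of 0.99 ± 0.55 (SE; adjusted p = 0.192 by edgeR). The median of the 10 log2 fold changes was 0.08 in WT and -0.10 in p27null, against 0.01 and 0.02 over all genes tested.

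**Figure D1:**
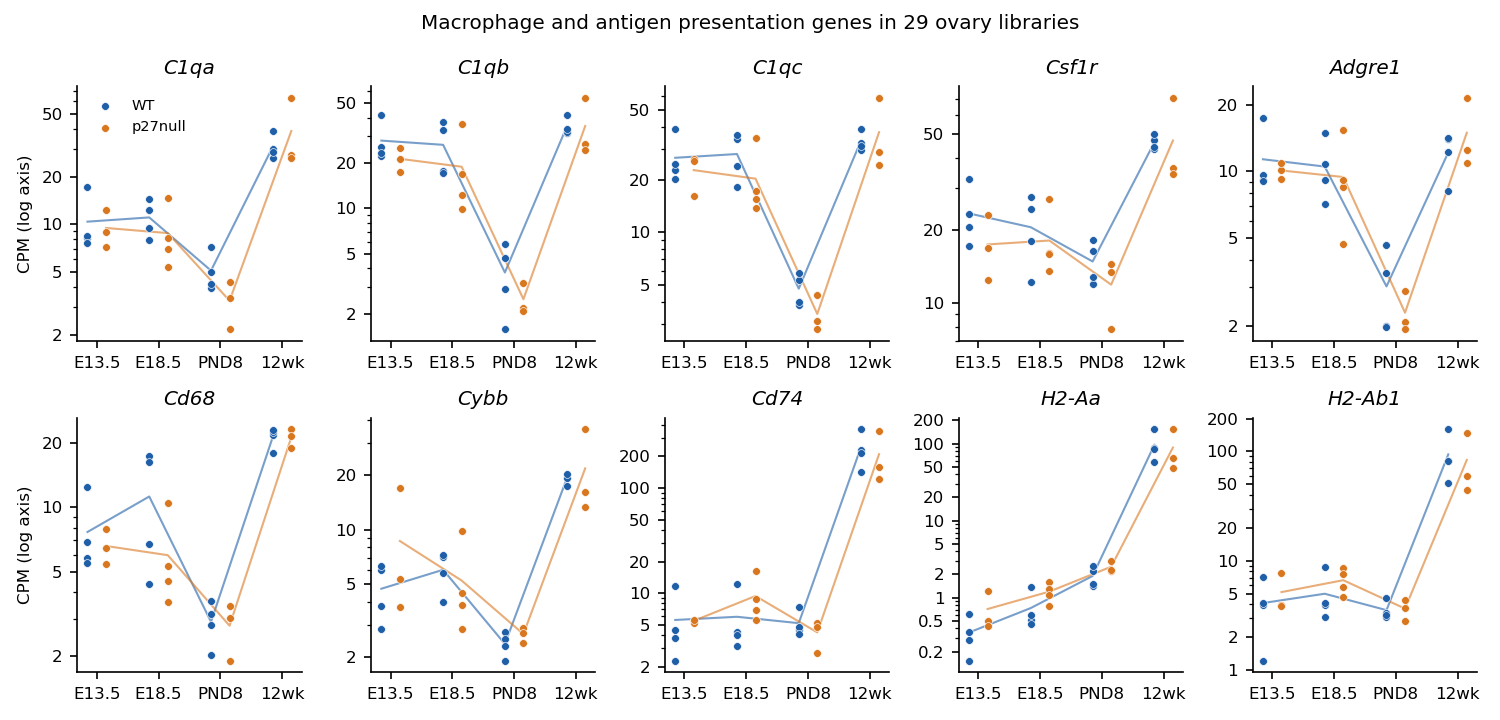
CPM of each gene (log axis) in each of the 29 libraries by age, WT in blue and p27null in orange; each point is 1 library and lines join group means. In both genotypes the complement, Csf1r, Adgre1, Cd68 and Cybb panels dip at PND8, whereas H2-Aa steps up at each age, and all 10 genes are highest on average at 12wk.

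Around birth C1qa, C1qb, Adgre1 and Cd68 fell and H2-Aa rose in both genotypes. C1qc and Cybb were picked for low values at PND8, so their values at this step are given without a test, and counts are over the other 8 genes. From E18.5 to PND8 in WT, 4 of the 8 were called lower and 1 was called higher. The background is wide at this step, with 36.9% of all genes called lower and 37.6% called higher. In p27null 7 of the 8 were called lower and 1 higher, against 38.5% and 38.9% of all genes. The median log2 fold change of the 8 was -0.90 in WT and -1.18 in p27null, against 0.01 and -0.01 over all genes tested. Markers of erythroid cells, neutrophils and monocytes were mostly lower at PND8 too. In WT 6 of 6 erythroid, 3 of 3 neutrophil and 2 of 3 monocyte genes tested were called lower, with median log2 fold changes of -7.49, -2.70 and -2.07. In p27null it was 2 of 6, 2 of 4 and 3 of 4, with medians of -3.88, -1.94 and -2.27. Of all genes, 36.9% were called lower in WT and 38.5% in p27null. The dendritic cell list did not fall. In WT 1 of its 4 tested genes was called higher and 0 lower (median 0.40), and in p27null 1 of 2 and 0 (median 0.08). The part of these blood cells in the result was not tested. In these samples of dissociated ovary cells, fewer cells of a type and less RNA per cell cannot be told apart. Column names of the deposited counts speak of combined projects without assigning libraries to them. A batch that follows age can therefore not be told apart from age, at this step or any other.

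In WT, C1qc went from 18.2, 34.0, 35.9 and 24.1 CPM at E18.5 to 3.87, 5.37, 3.99 and 5.86 CPM at PND8. Every PND8 library was below every E18.5 library, with a log2 difference of -2.65. The p27null libraries went from 34.6, 15.5, 13.8 and 17.2 CPM to 4.36, 3.10 and 2.79 CPM, also without overlap, with a log2 difference of -2.61. C1qb changed by -2.90 ± 0.42 in log2 in WT (SE; edgeR adjusted p = 0.000101) and by -2.96 ± 0.47 in p27null (edgeR adjusted p = 0.000425). C1qa, the third chain, changed less, by -1.21 ± 0.27 in WT and -1.47 ± 0.37 in p27null. WT C1qa values were 7.94, 14.4, 12.3 and 9.46 CPM at E18.5 and 3.93, 5.01, 4.18 and 7.19 CPM at PND8, so that the groups lay close together without overlapping.

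The surface and lysosomal markers fell as well. Adgre1 went from 7.11, 9.16, 15.0 and 10.8 CPM to 2.00, 3.48, 1.98 and 4.64 CPM in WT, a log2 fold change of -1.89 ± 0.34, and changed by -2.09 ± 0.37 in p27null. In neither genotype did its groups overlap. Cd68 was uneven at E18.5 in WT, with 4.36, 17.5, 16.4 and 6.71 CPM, against 3.63, 3.15, 2.03 and 2.80 CPM at PND8. Replicates 2 and 3 were the high ones, and the log2 fold change was -2.05 ± 0.44 in WT and -1.15 ± 0.38 in p27null. In p27null the call for Cd68 was lost without PND8 replicate 4 (edgeR adjusted p = 0.0702).

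Csf1r changed least of the macrophage genes. Its WT values were 12.2, 18.1, 27.6 and 24.5 CPM at E18.5 and 12.0, 16.5, 12.9 and 18.2 CPM at PND8. These groups overlapped, and the log2 fold change of -0.56 ± 0.25 missed the threshold (edgeR adjusted p = 0.0589). It passed with RLE scaling (0.0499), with DESeq2 (0.0497) and without E18.5 replicate 1 (edgeR adjusted p = 0.00508). In p27null the difference was -0.66 ± 0.27 and just passed (edgeR adjusted p = 0.0489), with overlapping groups and in 5 of 12 alternatives. Among the genes of Csf1r signalling and the macrophage lineage, Csf1, a ligand of the receptor, rose in WT by 0.87 ± 0.19, and Cebpa, a myeloid transcription factor that granulosa cells also express, rose by 3.51 ± 0.35. Il34, the other ligand, differed by 0.16 ± 0.31 (edgeR adjusted p = 0.656), and Irf8, a factor of monocyte and macrophage differentiation, by -0.61 ± 0.34 (edgeR adjusted p = 0.119).

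Cybb went from 4.00, 7.06, 7.24 and 5.79 CPM to 2.73, 2.49, 1.90 and 2.28 CPM in WT, with no overlap and a log2 difference of -1.45. In p27null it went from 9.84, 2.83, 3.85 and 4.49 CPM to 2.89, 2.72 and 2.38 CPM, a log2 difference of -1.03. Replicate 1 was the high library at E18.5 in p27null, and on this scale E18.5 replicate 2 lay just under PND8 replicate 1. Cyba, which encodes the membrane partner of the Cybb product, fell by 2.54 ± 0.15 in WT and by 2.84 ± 0.14 in p27null. Ncf4, a cytosolic subunit gene, fell by 3.53 ± 0.52 in WT and was called lower in p27null too. The p27null call for Ncf4 held in 6 of 12 alternatives. Cyba is expressed by many cell types, and Rac2, a small GTPase of blood cells, fell by 3.02 ± 0.32 in WT.

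The class II genes did not move as a block at this step. H2-Aa rose from 0.519, 0.601, 1.36 and 0.458 CPM to 2.20, 1.42, 2.55 and 1.49 CPM in WT, by 1.3 ± 0.41 in log2 (edgeR adjusted p = 0.0144). The highest E18.5 library and the lowest PND8 library nearly met, and under the scaling of the 8 libraries tested they overlapped. In p27null it went from 1.62, 1.31, 0.769 and 1.10 CPM to 3.03, 2.22 and 2.32 CPM, without overlap, by 1.01 ± 0.32 (edgeR adjusted p = 0.0158). That call was lost without PND8 replicate 1 (0.0628). H2-Ab1, the partner chain, was not called in WT (-0.58 ± 0.33; edgeR adjusted p = 0.135) and was called lower in p27null, by -0.92 ± 0.27. Cd74 showed -0.28 ± 0.41 in WT (edgeR adjusted p = 0.55) and fell by 1.2 ± 0.39 in p27null, a call lost without PND8 replicate 3 (0.0722). The WT value for Cd74 turned to 0.35 without E18.5 replicate 3, whose 12.3 CPM stood above the 3.17, 4.31 and 4.04 CPM of the other replicates. Whether the genotypes differed in this step was tested only through the interaction over all ages.

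Of 16 other class II pathway genes, 12 were tested in WT at this step, with 3 called higher and 6 lower. Of all genes, 37.6% were called higher and 36.9% lower, so these counts say little of the list as a whole. Both chains of the peptide exchanger fell, H2-DMa by 1.35 ± 0.25 and H2-DMb1 by 1.82 ± 0.28, as did the costimulatory ligand Cd86 (by 2.71 ± 0.41) and its fellow costimulator Cd40 (by 1.92 ± 0.39). Ifi30, a lysosomal thiol reductase, rose by 1.98 ± 0.19, and Rfxap, a subunit of the factor that binds the X box, by 1.42 ± 0.28. H2-Eb1 was called higher by 0.80 ± 0.33 (edgeR adjusted p = 0.0473) in 7 of 13 alternatives. In p27null 11 were tested, 5 called higher and 6 lower, beside 38.9% and 38.5% of all genes. Of these calls, those for H2-Eb1, Ciita, Rfxank and Cd40 were lost without PND8 replicate 3 and held in 3, 4, 1 and 9 of 12 alternatives. H2-DMa fell by 1.86 ± 0.28 and H2-DMb1 by 2.41 ± 0.45 there.

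Other macrophage genes moved like the members at this step in most cases. In WT 17 of the 24 tested were called lower and 3 higher, beside 36.9% and 37.6% of all genes. In p27null it was 17 of 23 lower and 2 higher, beside 38.5% and 38.9%. Fcgr3, a receptor for antibody, fell by 4.17 ± 0.22 in WT, and its signalling chain Fcer1g by 3.87 ± 0.37, but mast cells carry both. Mast cell genes stood at 1362 to 1958 summed CPM in WT at E18.5 and 11.9 to 24.4 at PND8, and at 1505 to 2167 and 25.2 to 74.6 in p27null. The part of mast cells in these falls was not tested. Among the genes called higher were Mertk, a receptor for dying cells (1.03 ± 0.15 in WT, 1.01 ± 0.11 in p27null), and, in WT, Lyve1 (2.45 ± 0.76), a hyaluronan receptor that lymphatic endothelium also has.

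**Figure D2:**
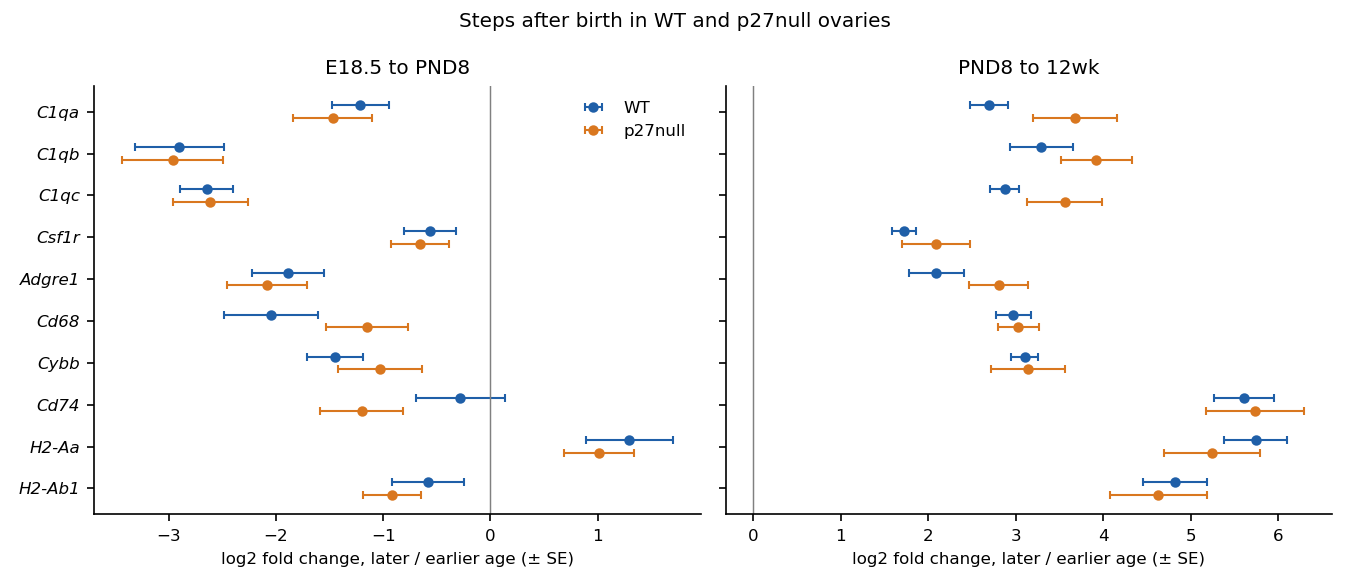
Log2 fold change of each gene with its SE from E18.5 to PND8 (left) and from PND8 to 12wk (right), WT in blue and p27null in orange; values right of 0 are higher at the later age. On the left H2-Aa alone lies above 0 in both genotypes, and on the right all 10 genes do, with Cd74, H2-Aa and H2-Ab1 farthest to the right.

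From PND8 to 12wk all 10 genes were higher in both genotypes, and the class II genes by the most. C1qc and Cybb were picked on this difference, so the WT values of all 10 genes, and the p27null values of C1qc and Cybb, are given without a test. For the 8 members not picked on it, the WT 12wk libraries lay above the PND8 libraries without overlap, beside 17% of all genes, and 16.1% of all genes were called higher. Nothing is read from these WT shares, since the rule may have used this contrast. In p27null the 8 were all called higher, against 14.8% of all genes tested. Their ages did not overlap in p27null, beside 23.2% of all genes. The rule names no genotype, and the members were chosen with earlier results of these data known. These p27null calls are therefore no independent support for the choice of members. The median log2 fold change of the 8 was 3.13 in WT and 3.80 in p27null, against -0.01 over all genes in each. This step shares its PND8 libraries with the step before it.

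Cd74 was at 4.50, 4.74, 4.12 and 7.38 CPM in WT at PND8 and at 230, 364, 218 and 142 CPM at 12wk. In p27null the values were 5.25, 2.69 and 4.76 CPM and then 122, 158 and 351 CPM. The lowest adult library was far above the highest PND8 library in each genotype, with a log2 fold change of 5.61 in WT and 5.74 ± 0.56 in p27null (edgeR adjusted p = 0.0016).

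H2-Aa went from 2.20, 1.42, 2.55 and 1.49 CPM to 89.0, 154.5, 84.6 and 58.3 CPM in WT, a log2 fold change of 5.74. In p27null it went from 3.03, 2.22 and 2.32 CPM to 47.95, 65.1 and 153.8 CPM, by 5.25 ± 0.55 (edgeR adjusted p = 0.00197). WT replicate 2 and p27null replicate 4 were the high adult libraries for both chains of I-A. H2-Ab1 had 82.3, 160.3, 81.8 and 51.5 CPM in WT adults and 44.8, 59.4 and 146.5 CPM in p27null adults, with log2 fold changes of 4.82 and 4.63 ± 0.55.

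In p27null C1qa rose by 3.68 ± 0.48 and C1qb by 3.92 ± 0.41 in log2 (edgeR adjusted p = 0.00344 and 0.00169), and the difference for C1qc was 3.56. The WT log2 differences were 2.69, 3.29 and 2.87. C1qc reached 29.4, 38.8, 32.3 and 31.3 CPM in WT adults and 28.8, 24.4 and 58.9 CPM in p27null adults. The WT adult values are close to each other and replicate 4 stands apart in p27null. For C1qb the WT adult mean was 34.6 ± 4.90 CPM (SD, n = 4), above the 22.2, 25.5 and 23.3 CPM of 3 WT E13.5 libraries and below the 41.4 CPM of the other one.

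Csf1r had the smallest difference of the 10, with 47.3, 50.2, 43.4 and 44.1 CPM in WT adults (log2 fold change 1.72) and 36.1, 34.2 and 70.7 CPM in p27null adults (2.09 ± 0.39; edgeR adjusted p = 0.0106). Adgre1 reached 14.1, 8.19, 14.2 and 12.3 CPM in WT and 10.9, 12.4 and 21.5 CPM in p27null, with log2 fold changes of 2.09 and 2.80 ± 0.34. WT replicate 2, high for class II and C1q genes, was the lowest adult library for Adgre1. Cd68 was at 22.0, 18.0, 22.6 and 23.1 CPM in WT adults and 19.0, 23.3 and 21.8 CPM in p27null adults (2.97 and 3.03 ± 0.23). Cybb stood at 19.2, 17.4, 19.3 and 20.2 CPM in WT adults and 13.3, 16.1 and 35.8 CPM in p27null adults, with log2 differences of 3.10 and 3.14.

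The 8 calls in p27null held under each of the 11 alternatives run. Without p27null 12wk replicate 4, which was the highest library of its group for 9 of the 10 genes, the log2 fold changes ran from 1.63 for Csf1r to 5.11 for Cd74. That library also had the highest summed endothelial and erythroid levels of the adult libraries, 1141 and 809 CPM against 401 to 528 and 86.0 to 229 in the other 6. Their part in the result was not tested.

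Per kilobase the adult order was led by Cd74, at 169 CPM per kb in WT and 149 in p27null, and H2-Ab1, at 77.5 and 69.0. C1qb (31.8), H2-Aa (29.97), C1qa (29.7) and C1qc (27.4) followed in WT and did not differ beyond their spread. Cybb (4.01) and Adgre1 (3.76) were the lowest in WT. This order depends on the length used, here that of the longest transcript. Per kilobase of all exons, C1qc in WT adults was at 17.1 ± 2.11, below C1qb at 31.8 ± 4.50 (SD, n = 4), and H2-Ab1 was at 36.6.

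The list of other class II pathway genes did not move as a whole at this step. In p27null 8 of 14 tested genes were called higher and none lower, beside 14.8% of all genes called higher. The calls for Lgmn and Cd86 held in 6 of 11 alternatives each and were lost without PND8 replicate 4. H2-Eb1 rose by 4.61 ± 0.50 and reached 47.6, 58.8 and 139 CPM, after 4.01, 3.63 and 3.24 CPM at PND8. H2-DMa (2.44 ± 0.51) and H2-DMb1 (3.56 ± 0.71), whose products edit peptide loading, rose too, and the H2-DMb1 call was lost without PND8 replicate 4. Ciita rose by 2.53 ± 0.53 (edgeR adjusted p = 0.0131), a call lost without PND8 replicate 4 (0.053). The subunits of the X-box factor were not called, at -0.13 ± 0.09 for Rfx5, 0.34 ± 0.12 for Rfxank and -0.22 ± 0.12 for Rfxap, and neither was Ifi30 (-0.07 ± 0.08). In WT, given as description, H2-Eb1 and Ciita were higher at 12wk by 4.75 and 3.02 in log2, and Rfx5, Rfxank, Rfxap and Ifi30 lay between -0.23 and 0.19.

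Around Cybb, the cytosolic subunit gene Ncf1 rose in p27null by 2.11 ± 0.47, Rac2 by 2.23 ± 0.49 and Cyba by 0.75 ± 0.19. Of these, the calls for Ncf1 and Rac2 were lost without PND8 replicate 3 or 4, and that for Cyba without any PND8 replicate. Ncf4 showed 2.29 ± 0.85 and was not called (edgeR adjusted p = 0.0864). Cyba had a mean of 29.8 CPM in WT adults, against 176 CPM at E18.5. For the Csf1r group, Irf8 rose by 2.51 ± 0.32 and Cebpa by 2.60 ± 0.31 in p27null. Csf1 rose by 0.76 ± 0.17 there, a call lost without PND8 replicate 3 or 4 (0.0709 and 0.0599), and Il34 showed 0.91 ± 0.51 (edgeR adjusted p = 0.223).

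Markers of several leukocyte types were higher at 12wk beside the members. Of all 17437 genes tested at this step in p27null, 2578 (14.8%) were called higher and 2493 lower. Of the other macrophage genes, 24 of 26 were called higher in p27null, led by Siglec1, a sialic-acid-binding lectin (4.67 ± 0.60), Ctss, the protease that trims the invariant chain (4.57 ± 0.34), and Mpeg1, a pore-forming protein of phagocytes (4.23 ± 0.40). T and NK cell markers summed to 0.190 to 0.666 CPM in WT and 0.384 to 0.730 in p27null at PND8, and to 10.7 to 22.4 and 4.22 to 21.6 at 12wk, with 5 of 5 tested genes called higher in p27null. In p27null 3 of 4 monocyte genes tested were called higher, among them Plac8 (2.41 ± 0.26), and 1 lay below 0. Of 7 dendritic cell genes 5 were called higher, among them Itgax (4.54 ± 0.40), and 1 lay below 0. Summed dendritic cell levels overlapped between the ages, at 62.9 to 79.7 CPM and 53.7 to 81.1 in p27null, and 76.9 to 98.3 and 51.9 to 79.1 in WT. Of 4 mast cell genes 4 were called lower in p27null, and of 3 neutrophil genes 0 were called. B cell markers summed to 1.09 to 1.83 CPM at PND8 and 6.24 to 11.3 at 12wk in WT, without overlap, and to 1.01 to 5.59 and 3.03 to 12.6 in p27null, with overlap. In p27null 0 of 5 were called by edgeR, with 1 at an unadjusted p under 0.05. The part of these cells in the class II levels was not tested.

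**Figure D3:**
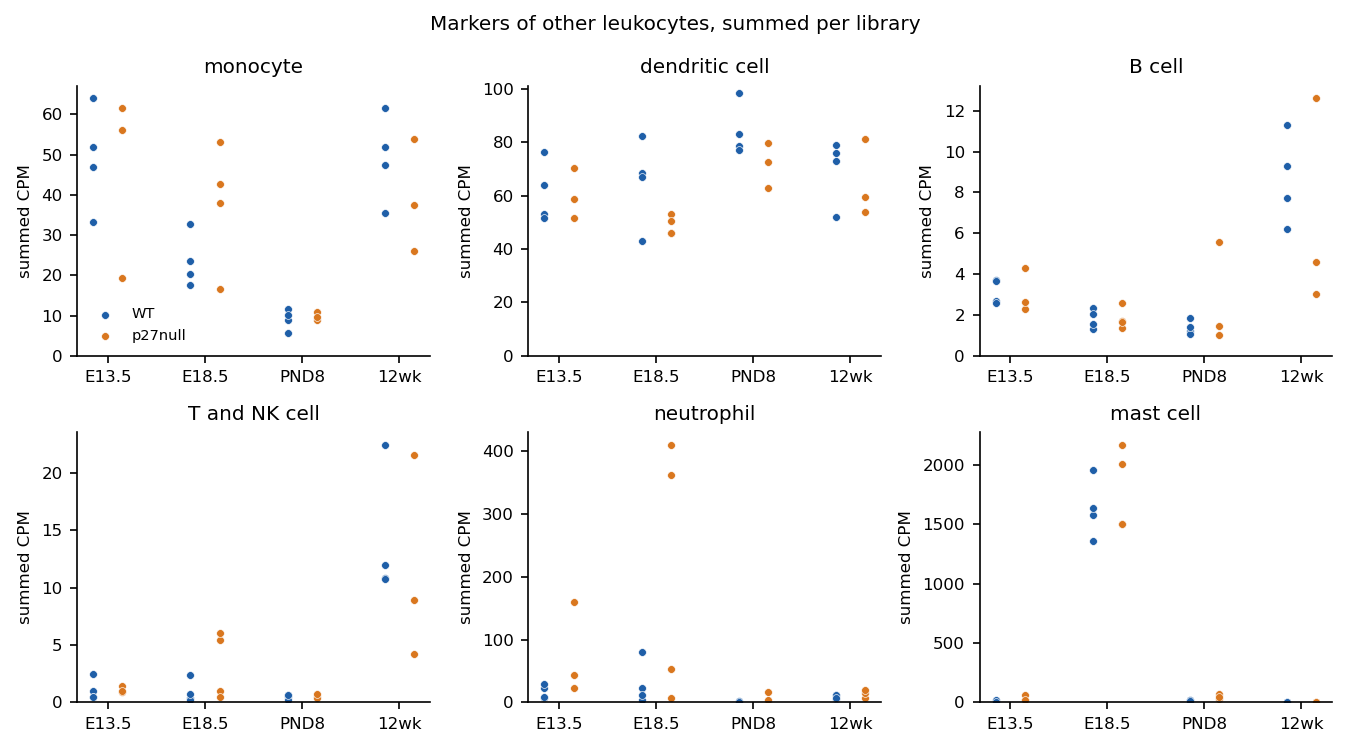
Summed CPM of marker lists of 6 other leukocyte types in each library by age, WT in blue and p27null in orange; each point is 1 library and axes start at 0. T and NK cell sums reach at most 6.07 CPM before 12wk, in p27null at E18.5, and lie between 4.22 and 22.4 at 12wk, and mast cell sums are at 1362 CPM or more at E18.5.

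Among the 7 adult libraries the class II genes, the C1q genes and Csf1r were highest in the same 2 libraries, and Cd68 varied little. WT replicate 2 had the highest WT value for 7 members, the C1q chains, Csf1r, Cd74, H2-Aa and H2-Ab1, and the lowest for Adgre1, Cd68 and Cybb. In the same library Ciita was at 12.8 CPM, against 4.79 to 6.62 in the other WT adults. Star encodes the protein that brings cholesterol into mitochondria for steroid synthesis and is high in luteal cells. It was at 733 CPM in WT replicate 2 and at 917 in p27null replicate 4, against 155 to 338 in the other 5. These are the 2 libraries highest for class II genes, C1q genes and Csf1r. How the Star levels bear on these genes was not tested.

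**Figure D4:**
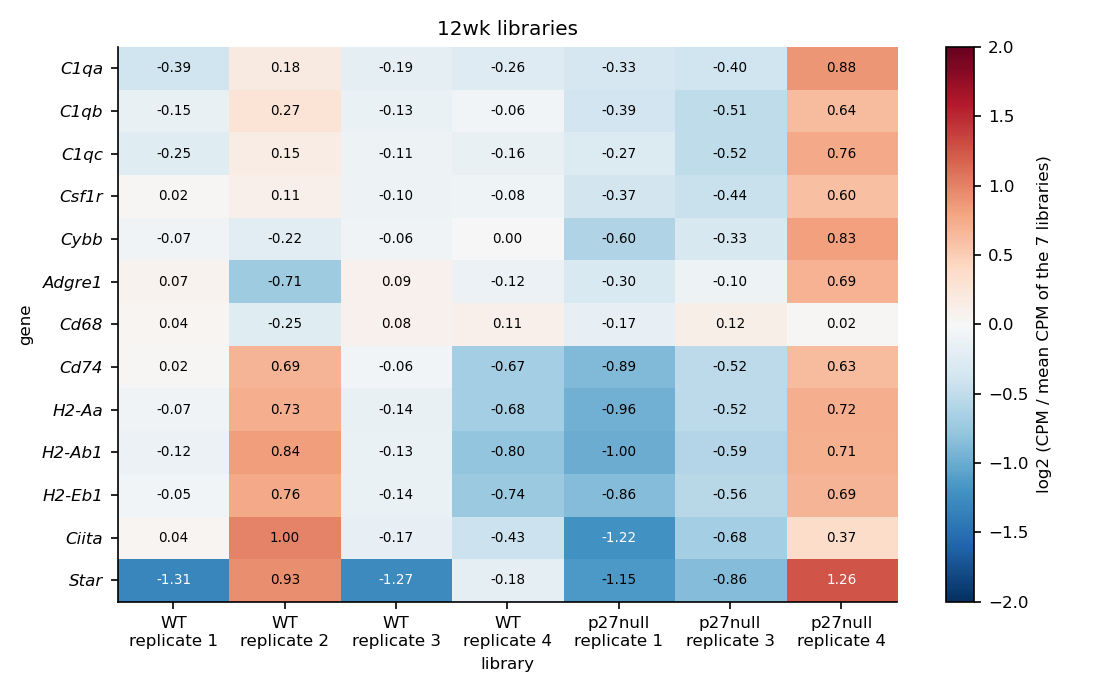
Heat map of log2 ratios of CPM to the mean of the 7 libraries for each gene (rows) in each 12wk library (columns), red above and blue below the mean, with the value in each cell. WT replicate 2 is at 0.69 to 0.84 and p27null replicate 4 at 0.63 to 0.72 for Cd74, H2-Aa and H2-Ab1, while Cd68 stays within -0.25 and 0.12 in all 7.

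The C1q genes and the class II genes had different profiles over the 8 groups. Each gene's mean log2 CPM per group was centred, and the root mean square distance to the mean profile of the 3 C1q genes was taken for 13969 genes, whose median distance was 1.38. The nearest genes outside the set were Ly86 (0.21), a partner of a Toll-like receptor family protein, Ptafr (0.24), the receptor for platelet-activating factor, Pld4 (0.26), Lilrb4a (0.28) and Rsad2 (0.30), an interferon-induced antiviral gene. Adgre1 (0.34) and Cd68 (0.42) were close to that profile too, and H2-Aa (2.61) and Cd74 (1.76) were not. Around the mean profile of Cd74, H2-Aa and H2-Ab1, the nearest were H2-Eb1 (0.41), Plch2 (0.52), Star (0.54), Mgarp (0.55) and Ces2a (0.63), where the median over all genes was 2.33. Group means hide uneven adult libraries for Plch2 and Ces2a, at 21.4 ± 26.6 and 10.8 ± 20.9 CPM in WT at 12wk (SD, n = 4), and Ces2a was at 0 in the fetal groups. For H2-Eb1, Star and Mgarp the SD there was below the mean. Near the C1q profile, Ly86 had 3.18, 1.01 and 6.34 CPM on average in WT at E18.5, PND8 and 12wk.

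No difference between p27null and WT ovaries was called for any of the 10 genes at any age. At E13.5 9 members were tested, since H2-Aa was too low to pass the filter, and 0 were called, against 0.00606% of all genes tested. At E18.5 0 of 10 were called, against 4.99% of all genes, at PND8 0 of 10 against 0.349%, and at 12wk 0 of 10 against 0.0115%. Cdkn1b itself was called lower at each earlier age but not at 12wk. Its 12wk difference was -1.85 ± 0.31 in log2 (edgeR adjusted p = 0.211), with groups that did not overlap. The 12wk test thus missed a difference of that size, and 0 members called there says little. No member had an unadjusted p under 0.05 at any age by edgeR, and DESeq2 called 0 members at each. The genotypes overlapped for every member tested at every age. Of all genes, the p27null libraries lay wholly above and wholly below the WT libraries for 1.57% and 2.27% at E13.5, 8.49% and 5.96% at E18.5, 6.88% and 7.84% at PND8, and 5.1% and 4.59% at 12wk. The median log2 fold change of the members, p27null against WT, was -0.20, -0.22, -0.32 and 0.03 at the 4 ages in order, where the median over all genes lay between -0.04 and 0.

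The largest difference at E13.5 was in Cybb, at 2.86, 3.82, 5.98 and 6.28 CPM in WT and 3.75, 5.36 and 16.9 CPM in p27null. It rested on p27null replicate 4, since the log2 fold change of 0.83 ± 0.53 became -0.08 without that library. Neutrophils also express Cybb, and neutrophil markers summed to 161 CPM in that library, against 7.58 to 44.3 CPM in the other E13.5 libraries. Their part in the result was not tested. At E18.5 Cd68 had 4.36, 17.5, 16.4 and 6.71 CPM in WT and 10.4, 4.51, 3.61 and 5.30 CPM in p27null (-0.94 ± 0.49; edgeR adjusted p = 0.291). At PND8 C1qa had 3.93, 5.01, 4.18 and 7.19 CPM in WT and 4.27, 3.40 and 2.16 CPM in p27null (-0.65 ± 0.29; edgeR adjusted p = 0.34). At 12wk the C1qa difference of 0.34 ± 0.34 turned to -0.25 without p27null replicate 4. A p above the threshold does not show that the genotypes were alike, and the SEs ran from 0.13 to 0.53.

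**Figure D5:**
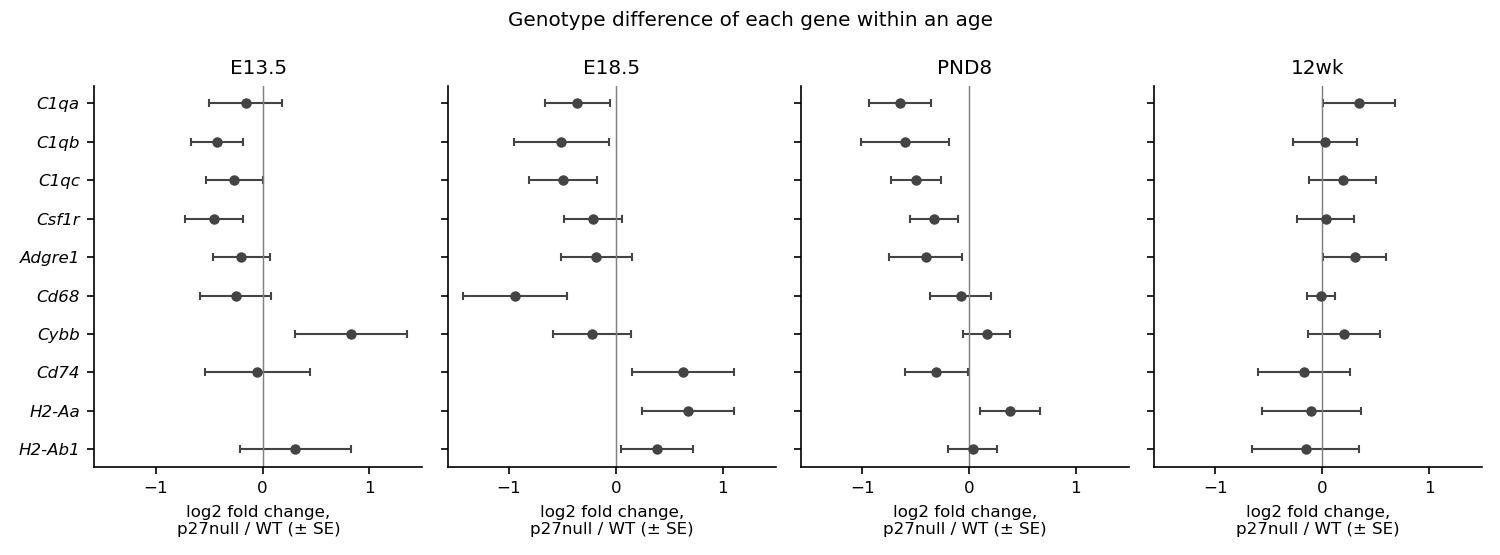
Log2 fold change with SE of each gene, p27null over WT, at each age; points left of 0 are lower in p27null. H2-Aa was not tested at E13.5, and every point lies between -0.94 and 0.83.

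The C1q chains were lower on average in p27null at E13.5, E18.5 and PND8, by 0.16 to 0.65 in log2, with no call for any of them. At 12wk the sign of the difference changed under some alternative for each of the 10 genes. H2-Aa was higher on average in p27null at E18.5 (0.68 ± 0.43) and PND8 (0.38 ± 0.28), again with no call. The test of whether the genotype difference changed with age, an interaction over all 4 ages, is given for the 8 genes not picked on age. It called 0 of them, beside 0.806% of all genes, with edgeR adjusted p-values from 0.657 to 0.917.

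No gene of the oxidase, class II, or Csf1r ligand and lineage lists was called by genotype with edgeR at any age. The lowest adjusted p among them was 0.171, for Cyba at PND8 (-0.49), and 4 of the 5 genes of the Csf1r list had an unadjusted p under 0.05 at 12wk, against 1675 of 17396 genes tested. The 5 had no common direction, with 3 above 0 and 2 below, from -1.18 to 1.17 in log2 and a median of 0.10.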

How the data were processed

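Ovary libraries of 8 groups were analysed from expected counts per gene that the authors made with RSEM 1.3.0 and deposited in 1 table. The submitters' processing notes also name Trim Galore, STAR 2.5.2 and FastQC 0.11.5, without their settings. Genome build, annotation and strandedness are not given in the sources used here. Expected counts, of which 31.4% of nonzero values were not whole, were rounded. Groups came from the sample labels. Each pair of groups was fitted alone with edgeR 4.0.16 (R 4.3.3; robust quasi-likelihood F test, TMM, filterByExpr with a minimum count of 10 and total of 15) and adjusted by Benjamini-Hochberg over all genes tested, at 0.05. A genotype by age interaction used all 29 libraries. SE is the log2 fold change divided by the square root of F. The procedure was tested on simulated data. Levels are CPM. Alternatives were RLE scaling, no filter, DESeq2 1.42.0, a replicate block, 1 fit of all 8 groups and leaving out each library. The members and lists were chosen with earlier results of these data known. List genes named are, per comparison, up to 3 called in each direction with the largest change and a mean of at least 2 CPM, and any gene of the oxidase, class II and Csf1r lists. Same-numbered libraries were not paired in the fits of 2 groups, and the replicate block served only as an alternative. Deviations from group means gave a hint of pairing in p27null from E13.5 to E18.5. There same-numbered libraries correlated at 0.128 to 0.23 in 3 pairs. Between genotypes at E18.5 the values were 0.091 to 0.24 in 4 pairs. For p27null from E13.5 to E18.5 the block alternative called 3877 genes, against 5018 without it, and 0 members in both. Some genes of the lists are not reported here.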

Additional observations from a re-analysis of the deposited data

Results flagged for a closer look

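In 5 of the 50 groups of 4 libraries compared, counting each of the 10 genes in each such group, 1 library stood apart from the other 3 by Dixon's criterion, which chance meets in about 1 of 20 groups. The 10 genes share their libraries, so these are not independent. WT E13.5 replicate 4 stood apart for C1qa, at 17.28 CPM, and for Adgre1, at 17.5 CPM, and had the highest value of its group for all 10 genes. In p27null at E18.5, replicate 1 stood apart for C1qc, at 34.57 CPM, and was also highest for all 10. WT E18.5 replicate 3 stood apart for Cd74, at 12.34 CPM, and for H2-Aa, at 1.36 CPM, and was highest for 8 of the 10.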

How the results depend on the processing

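No member was called between genotypes under any alternative. Counts of genes called between genotypes did move. At E13.5 the count was 1, with 71 by DESeq2, 59 with all 8 groups in 1 fit and 0 to 1 when single libraries were left out. At E18.5 it was 814, with 1652 by DESeq2 and 246 to 1372 without single libraries. At PND8 it was 62, with 258 without the filter, 740 by DESeq2, 0 in 1 fit and 0 to 147 without single libraries. At 12wk it was 2, with 12 without the filter, 298 by DESeq2, 68 in 1 fit and 0 to 3 without single libraries. For the interaction it was 164, with 709 by DESeq2 and 72 to 235 without single libraries. The cause was not tested. The libraries share only a replicate number: with that number as a block the counts between genotypes were 8 at PND8 and 10 at 12wk, and no count of members called changed. From PND8 to 12wk in p27null 5071 genes were called, and 2642 to 5129 without single libraries, the lowest without PND8 replicate 3. From E18.5 to PND8 the calls described are those of the 8 members not picked. In p27null the calls for Csf1r, Cd74 and H2-Ab1 were lost in 1 fit of all groups. Those for Csf1r, Cd68, Cd74 and H2-Aa were lost without some single library. In WT no call among the 8 was lost in any of 13 alternatives, and Csf1r was called in 3 of them. Between genotypes, signs changed in some alternative for 10 members at 12wk, 2 at PND8, 1 at E18.5 and 6 at E13.5, and between the fetal ages for 6 in each genotype. Examples are Cybb at E13.5 (-0.08 to 1.18), C1qa at 12wk (-0.25 to 0.59) and Cd74 from E18.5 to PND8 in WT (-0.49 to 0.35), in each case when 1 library was left out. Per kilobase of all exons in place of the longest transcript, 17 of 80 levels moved by more than their SD. Depth limits H2-Aa at E13.5, where the lowest library held 2 counts.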
